A study of Rattus norvegicus with 20 samples.

Results

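The 10 genes considered here code for heat shock proteins and their partners: the Hsp70 proteins Hspa1a, Hspa1b and Hspa8, their exchange factor Hspa4, the J-domain proteins Dnaja1 and Dnajb1, the mitochondrial chaperonin pair Hspd1 and Hspe1, and the small heat shock proteins Hspb1 and Cryab. They were chosen by name, from the gene symbols of the deposited intensity table after a trailing label of predicted or mapped was taken off. The names matched 8 of the 21792 genes of the table, 1 row each; Hspa1a and Hspa8 were not matched and are not analysed here. Lung RNA came from 20 male CDF Fisher 344 rats, an inbred strain, aged 3 months, with 1 Illumina bead array per rat. Of these, 8 (rats 81 to 88) had inhaled crystalline silica, a mineral dust, at 15 mg/m3 for 6 h per day over 5 days and were killed 16 h after the last exposure. The other 12 had breathed air, with the exposure hours, the 5 days and the 16 h listed likewise. All 20 were labelled as 0 weeks after exposure. Identifiers of the air rats fell into 3 runs of 4 (89 to 92, 105 to 108 and 137 to 140). The lung is a mixed tissue, so in these samples fewer cells of a type and less RNA per cell cannot be told apart.

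Chaperones bind proteins that are not yet folded or have come unfolded, and keep them from clumping. In the cytosol, Hsp70 proteins do this with ATP, J-domain proteins such as Dnaja1 and Dnajb1 bring them clients and start ATP hydrolysis, and exchange factors such as Hspa4 release the spent nucleotide. In mitochondria, Hspd1 (Hsp60) forms a barrel in which proteins fold, and Hspe1 (Hsp10) is its lid. Small heat shock proteins such as Hspb1 (Hsp27) and Cryab (alpha B-crystallin) hold unfolded proteins without ATP, and in the lung they are known from smooth muscle and airway epithelium among other cells. Under heat, oxidants and other stresses the transcription factor Hsf1 raises many of these genes by binding heat shock elements, inverted repeats of the unit GAA and its complement TTC.

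Promoter sequences of Hspd1, Hspe1, Dnaja1, Dnajb1 and Hspb1 are shown, that of Hspd1 by the stretch it shares with Hspe1, because the comparisons below turn on these genes and because heat shock elements can be read in them. The windows are RefSeq's on the rat assembly GRCr8 and run from 250 bases before a start of each gene to 50 bases after it. For Hspd1 and Hspa4 the start used lies inside the gene's whole RefSeq span. The RefSeq table held a promoter for 8 of the 10 genes, and Cryab and Hspa1b were not among them. Hspd1 and Hspe1 are neighbours on chromosome 9 that start head to head, and their windows share 211 bases. Between the starts used for these windows lies a run of 18 bases with 4 alternating units, in capitals here with 12 bases on either side, printed once on each gene's strand:
Hspe1 strand, chr9:64084250-64084291 (plus strand): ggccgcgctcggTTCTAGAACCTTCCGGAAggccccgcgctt
Hspd1 strand, chr9:64084250-64084291 (minus strand): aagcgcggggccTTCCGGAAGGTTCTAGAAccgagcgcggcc
It starts 65 bases before the Hspe1 start, and on the other strand 242 bases before the Hspd1 start used here. RefSeq's whole span of Hspd1 reaches to base 64084332, so by that span the run of units lies inside the gene. Motifs were searched on both strands as 2 units (GAANNTTC or TTCNNGAA) and as 3 units (GAANNTTCNNGAA or TTCNNGAANNTTC), where a match of 3 units contains overlapping matches of 2. The 3-unit motif was found in 0.798% of 33469 promoters of this length (267 of them), a run of 4 units in 0.0478% (16 of them), and either 2-unit motif in 15.9%. The whole windows follow, with every match in capitals:
Hspe1, chr9:64084077-64084376 (plus strand): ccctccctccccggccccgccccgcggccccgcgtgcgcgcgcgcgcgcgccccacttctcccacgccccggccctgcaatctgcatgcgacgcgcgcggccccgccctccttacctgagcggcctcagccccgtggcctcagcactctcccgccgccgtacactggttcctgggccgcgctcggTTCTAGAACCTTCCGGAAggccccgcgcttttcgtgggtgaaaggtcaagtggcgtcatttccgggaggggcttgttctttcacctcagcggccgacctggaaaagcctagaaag
Dnaja1, chr5:60638154-60638453 (plus strand): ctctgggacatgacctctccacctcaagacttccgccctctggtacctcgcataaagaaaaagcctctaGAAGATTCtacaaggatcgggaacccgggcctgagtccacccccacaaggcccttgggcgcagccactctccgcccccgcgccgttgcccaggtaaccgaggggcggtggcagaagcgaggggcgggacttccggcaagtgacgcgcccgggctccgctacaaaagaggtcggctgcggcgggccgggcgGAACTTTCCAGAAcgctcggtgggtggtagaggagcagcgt
Dnajb1, chr19:41431092-41431391 (minus strand): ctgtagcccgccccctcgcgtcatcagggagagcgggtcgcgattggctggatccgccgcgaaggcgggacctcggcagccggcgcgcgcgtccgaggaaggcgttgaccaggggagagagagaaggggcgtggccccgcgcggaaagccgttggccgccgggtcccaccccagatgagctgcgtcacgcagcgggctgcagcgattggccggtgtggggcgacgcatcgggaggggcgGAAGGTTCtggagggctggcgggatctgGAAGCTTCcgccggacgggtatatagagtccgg
Hspb1, chr12:26432252-26432551 (minus strand): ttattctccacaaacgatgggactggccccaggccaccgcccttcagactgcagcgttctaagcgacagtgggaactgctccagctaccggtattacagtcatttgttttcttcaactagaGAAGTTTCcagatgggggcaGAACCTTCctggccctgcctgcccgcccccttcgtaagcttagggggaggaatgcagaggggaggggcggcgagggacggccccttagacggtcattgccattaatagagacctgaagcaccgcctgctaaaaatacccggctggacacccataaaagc
Hspd1, Hspe1 and Dnaja1, and also Hspa8, held a 3-unit match, which in Dnaja1 began at position 10 after the start. Dnajb1 and Hspb1 held 2-unit matches alone, and Hspa4 and Hspa1a had no match. The Hspa4 window (37949786 to 37950085) lies inside RefSeq's span of that gene (37908866 to 37951994), so the bases before that span were not searched. The Hspa1a window (3859506 to 3859805) lies at the first end of RefSeq's span (3859756 to 3863800). Bases further inside that span, where another start could lie, were not searched. These are matches of letters in the present assembly, and binding of Hsf1 was not measured.

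Values are log2 intensities after background correction and normalization between arrays. The limma fit took in the 10488 genes that had a detection p below 0.01 on 8 or more arrays, and p-values were adjusted over all of them. Of these genes, 24.5% passed an adjusted p of 0.05, 11.7% higher and 12.7% lower in silica lungs, and the median log2 fold change was −0.017. A change of at least 1.5-fold together with an adjusted p under 0.05 was seen in 1.33% of them. Of the 8 measured chaperones 7 were tested: 3 were higher in silica lungs (Hspd1, Hspe1 and Dnaja1), 1 was lower (Cryab) and 3 did not pass (Dnajb1, Hspa4 and Hspb1). The median of the 7 log2 fold changes was 0.11, and none of the 7 reached 1.5-fold. The groups did not overlap for 1 of the 7, Hspd1, against 2.57% of all genes tested, and none of the 7 lay wholly below the air range (0.744% of all genes). Both mitochondrial genes, 1 of the 3 cytosolic genes tested and neither small heat shock protein rose.

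Hspd1 (HSPD1 in the table, ILMN_1375684), the mitochondrial Hsp60, had log2 intensities of 11.40 at the lowest, 11.47 at the median and 11.53 at the highest in the 8 silica lungs, against 11.22, 11.29 and 11.38 in the 12 air lungs. Every silica array lay above every air array, a separation upward that 1.83% of all genes tested showed. Its mean was 11.47 ± 0.04 (SD, n = 8) in silica lungs and 11.30 ± 0.04 (SD, n = 12) in air lungs. Its log2 fold change was 0.17 ± 0.03 (SE; 95% interval 0.12 to 0.23), a 1.13-fold rise with a limma adjusted p of 7.12e-05. Hspd1 was among the steadiest genes between animals. Counting Hspd1 itself, only 0.725% of genes tested had an SD as small or smaller among silica arrays, and 0.143% among air arrays. Its row averages more than 1 probe, and the part of that averaging in the small spread was not tested.

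Hspe1 (HSPE1 in the table, ILMN_1361113), the lid of the same chaperonin, had log2 intensities of 9.15 at the lowest, 9.34 at the median and 9.60 at the highest in silica lungs, against 9.04, 9.19 and 9.37 in air lungs. The groups overlapped, with 3 of 8 silica arrays above all air arrays, and the highest silica array was that of rat 84. Its mean was 9.36 ± 0.15 (SD, n = 8) in silica lungs and 9.20 ± 0.11 (SD, n = 12) in air lungs. The log2 fold change was 0.16 ± 0.06 (SE; 95% interval 0.04 to 0.28), with a limma adjusted p of 0.0434. That call is close to the threshold: it was kept in 7 of the 20 fits that each leave out 1 array, and lost without silica replicate 1, 2, 4, 5 or 6 or air replicate 2, 5, 7, 8, 9, 10, 11 or 12. The adjusted p reached 0.106 without rat 84 (silica replicate 4). Between Hspd1 and Hspe1 the log2 fold changes differed by 0.013 (95% interval −0.11 to 0.13).

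Dnaja1 (DNAJA1 in the table, ILMN_1365695), a J-domain protein that works with Hsp70 on newly made proteins, had log2 intensities of 11.66 at the lowest, 11.88 at the median and 12.00 at the highest in silica lungs, against 11.59, 11.69 and 11.83 in air lungs. In 6 of 8 silica arrays it lay above all air arrays, while rats 82 and 86 lay within the air range. Its mean was 11.86 ± 0.10 (SD, n = 8) in silica lungs and 11.70 ± 0.09 (SD, n = 12) in air lungs, and the ratio was 1.12. The log2 fold change of 0.16 ± 0.04 (SE; 95% interval 0.07 to 0.25) had a limma adjusted p of 0.00703.

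Dnajb1 (DNAJB1 in the table, with a predicted label, ILMN_1369706), the J-domain protein known as Hsp40, had log2 intensities of 10.86 at the lowest, 11.02 at the median and 11.07 at the highest in silica lungs, against 10.71, 10.86 and 11.04 in air lungs. The ranges overlapped widely, with 2 silica arrays above all air arrays. The log2 fold change of 0.11 ± 0.05 (SE; 95% interval 0.02 to 0.21) did not pass, with a limma adjusted p of 0.0782. It passed in 4 of the 20 fits that leave out 1 array: without rat 82 (silica replicate 2; adjusted p = 0.0498), and without air replicate 1 (0.0408), 2 (0.0430) or 6 (0.0493).

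Hspa4 (HSPA4 in the table, ILMN_1356707), an exchange factor of the Hsp110 family, lay close to background, with intensities of 87.5 to 120 in silica lungs and 73.3 to 126 in air lungs. Its log2 fold change was 0.0035 ± 0.087 (SE; 95% interval −0.18 to 0.18; limma adjusted p = 0.982). The air arrays varied more, with an SD of 0.10 in silica lungs and 0.23 in air lungs, and the lowest air array was replicate 12. At such intensities the offset of the background correction draws differences toward 0, while the correction as used here went with a wider spread. The SE of 0.087 compares with 0.054 at an offset of 50 and 0.051 with no background correction.

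Hspa1b (HSPA1B in the table, ILMN_1371746), an Hsp70 gene that heat and other stresses induce, did not rise above background on any of the 8 silica or 12 air arrays. Its intensity was 52.3 to 79.6 in silica lungs and 46.4 to 71.5 in air lungs, and its detection p was 0.164 or more throughout, so no fold change is given. Whether the Hspa1b probe reads its transcript was not tested, so the RNA cannot be called absent. Another row bears on Hsp70 and was chosen after its values were seen. LOC498045 (ILMN_1360011), which RefSeq names Hspa8-ps31, a pseudogene of Hspa8, was detected on all 20 arrays. The log2 values averaged 13.42 ± 0.14 (SD, n = 8) in silica lungs and 13.29 ± 0.11 (SD, n = 12) in air lungs, and its log2 fold change of 0.14 ± 0.05 (SE) did not pass (limma adjusted p = 0.0577). Whether that probe reads transcripts of Hspa8 itself was not tested.

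Cryab (CRYAB in the table, ILMN_1365447) was the one chaperone of the set that fell. It had log2 intensities of 10.59 at the lowest, 10.73 at the median and 11.02 at the highest in silica lungs, against 10.84, 11.01 and 11.12 in air lungs. In 7 of 8 silica lungs it lay below every air array, and the remaining one, rat 84, lay within the air range. Its mean was 10.75 ± 0.13 (SD, n = 8) in silica lungs and 11.01 ± 0.09 (SD, n = 12) in air lungs, a ratio of 0.831. The log2 fold change of −0.27 ± 0.05 (SE; 95% interval −0.37 to −0.17) had a limma adjusted p of 3.41e-04.

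Cryab is abundant in muscle, and pieces of heart and vessel wall can come with lung tissue. Of the cardiac muscle markers, 0 of the 6 tested passed (limma; 1 at an unadjusted p under 0.05, Pln, with −0.45 and an adjusted p of 0.0853), with a median log2 fold change of −0.41. Their summed level varied widely in each group, 134 to 5146 in silica lungs and 162 to 7329 in air lungs on the linear scale of the normalized intensities. Of the 8 smooth muscle markers 2 fell, among them Smtn (−0.35), and none rose, with a median of −0.11, and their sum was 4366 to 5793 in silica lungs against 4533 to 6710 in air lungs. The part of these cells in the lower Cryab was not tested.

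Hspb1 (HSPB1 in the table, ILMN_1374332), the other small heat shock protein, had log2 intensities of 12.49 at the lowest, 12.85 at the median and 13.01 at the highest in silica lungs, against 12.79, 12.96 and 13.16 in air lungs. Rat 86 alone lay below all air arrays. Its mean was 12.83 ± 0.15 (SD, n = 8) in silica lungs and 12.96 ± 0.11 (SD, n = 12) in air lungs. The log2 fold change of −0.14 ± 0.05 (SE; 95% interval −0.25 to −0.02) did not pass (limma adjusted p = 0.0724), and without rat 86 (silica replicate 6) it was −0.09 (adjusted p = 0.169). It did pass in 3 other fits: without rat 87 (silica replicate 7; adjusted p = 0.0348), air replicate 10 (0.0473) or air replicate 7 (0.0459).

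**Figure D1:**
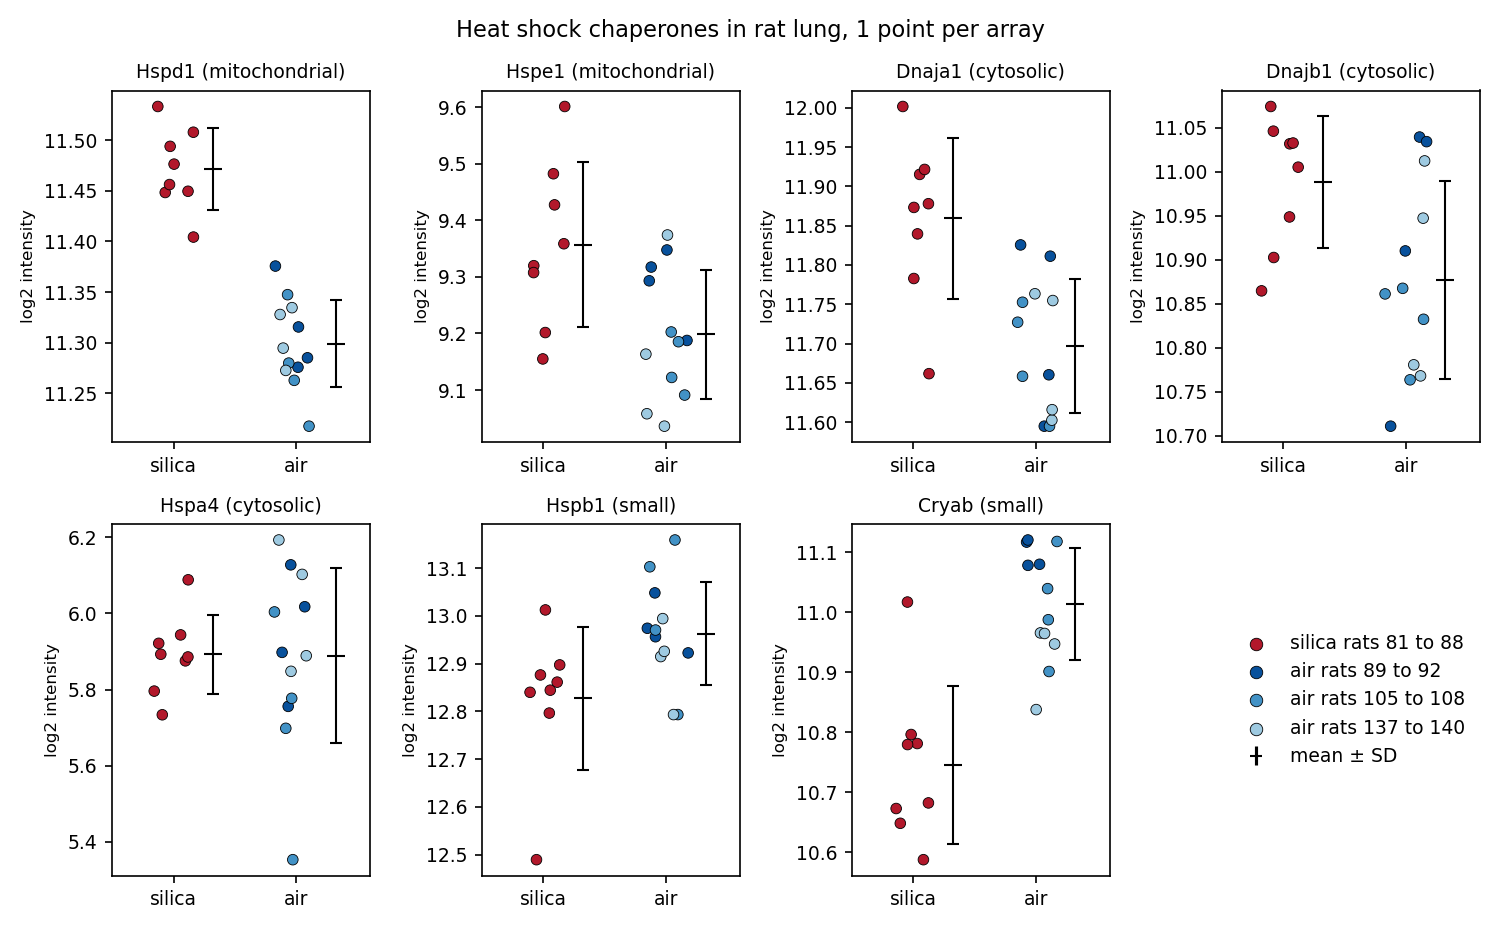
Log2 intensity (vertical axis, its range set for each gene) of the 7 tested chaperones in silica and air lungs, with 1 point per array, air arrays shaded by identifier run, and bars for the mean ± SD. For Hspd1 the 8 silica arrays lie above all 12 air arrays, for Cryab 7 of 8 lie below them, and the other genes overlap.

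To ask whether cytosolic, mitochondrial and small chaperones changed by the same factor, the difference of log2 values of each pair of genes was taken within each array and compared between groups with an exact 2-sided permutation test over arrays. All 21 pairs of the 7 tested genes were compared, of which 4 had been planned and the rest were added after the data had been seen, and p-values were adjusted over the 21. The planned pairs were Dnaja1 with Dnajb1, Hspd1 with Hspe1, Hspd1 with Hspb1, and Hspb1 with Cryab. Of these, Hspd1 with Hspb1 alone passed, so every other called pair was added after the data had been seen. The adjusted p was under 0.05 in 9 pairs, and each of the 9 set a cytosolic or mitochondrial gene above a small heat shock protein. The 9 pairs reuse the same 7 genes, each with Cryab or Hspb1 as a partner, so they are not independent of each other or of the single-gene changes above. How often pairs of other genes would pass was not tested.

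The mitochondrial pair separated from both small heat shock proteins. Hspd1 minus Cryab changed by 0.44 (95% interval 0.33 to 0.55) between silica and air lungs, and Hspe1 minus Cryab by 0.43 (0.33 to 0.52). In both pairs every silica array lay above every air array, and the exact permutation p of 7.94e-06 was the smallest these groups can give (adjusted p = 5.56e-05). Against Hspb1 the changes were 0.31 for Hspd1 (95% interval 0.19 to 0.43; adjusted p = 8.34e-05, exact permutation) and 0.29 for Hspe1 (0.10 to 0.49; adjusted p = 0.00859).

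The J-domain proteins did likewise. Dnaja1 minus Cryab changed by 0.43 (95% interval 0.32 to 0.54; adjusted p = 5.56e-05, exact permutation), again with no overlap of the groups, and Dnajb1 minus Cryab by 0.38 (0.24 to 0.51; adjusted p = 1.33e-04). Against Hspb1 the changes were 0.30 for Dnaja1 (0.16 to 0.44; adjusted p = 0.00122) and 0.25 for Dnajb1 (0.11 to 0.38; adjusted p = 0.00271). For Hspa4 the change was 0.27 against Cryab (0.06 to 0.48; adjusted p = 0.0271) and 0.14 against Hspb1 (−0.11 to 0.39; adjusted p = 0.321). The call of Hspa4 against Cryab was lost without silica replicate 3 (adjusted p = 0.0603), 5 (0.0608), 7 (0.0510) or 8 (0.0592).

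Cytosolic and mitochondrial genes were not told apart in any of their 6 pairs, and none of the 6 had an unadjusted p under 0.05. Dnaja1 minus Hspd1 changed by −0.0095 (95% interval −0.09 to 0.07) and Dnajb1 minus Hspd1 by −0.06 (−0.15 to 0.03), which bounds a difference between them to about those sizes. Hspa4 minus Hspd1 changed by −0.17 (−0.35 to 0.02; adjusted p = 0.147, exact permutation), and Hspa4 minus Hspe1 by −0.15 (−0.34 to 0.03; adjusted p = 0.174). Both passed when the lowest Hspa4 array, air replicate 12, was left out (adjusted p = 0.0211 and 0.0351), as did Dnaja1 minus Hspa4 (0.0351). With the authors' deposited log2 values these 3 pairs with Hspa4 passed as well (adjusted p = 9.38e-04 for Hspd1, 0.0287 for Hspe1 and 0.0117 for Dnaja1). The pairs of Hspa4 also depend on the background step. Hspa4 minus Hspd1 passed with limma's default neqc call (4.17e-05), with no background correction (0.0125) and with an offset of 50 (0.0177), and Hspa4 minus Hspe1 with the default call (0.0163) and no correction (0.0447). Dnaja1 minus Hspa4 and Dnajb1 minus Hspa4 passed with the default call (adjusted p = 0.00463 and 0.0367, exact permutation). Under that call Hspa4 itself had a log2 fold change of −0.0013 ± 0.012 (SE). The pair differences were then close in size to the partner gene's own change. Within a class, 0 of 5 pairs passed, and Hspb1 minus Cryab changed by 0.13 (−0.04 to 0.31; adjusted p = 0.209, exact permutation).

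**Figure D2:**
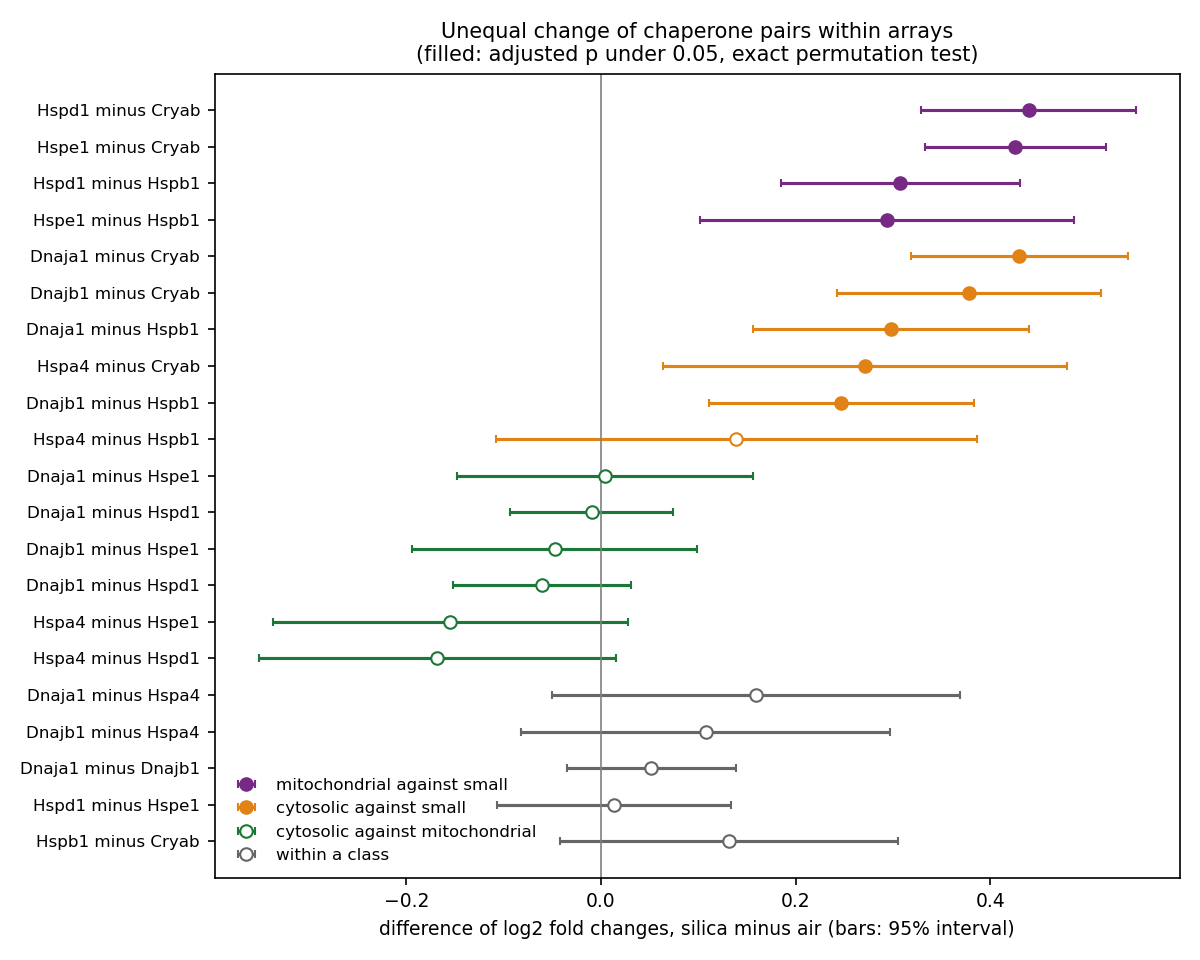
Difference of log2 fold changes, silica minus air (horizontal axis), for the 21 pairs of tested chaperones, with 95% intervals and filled points for an adjusted p under 0.05. The 10 pairs of a mitochondrial or cytosolic gene with a small heat shock protein lie right of 0, and 9 of them are filled, while the 6 pairs of cytosolic with mitochondrial genes are open.

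The air rats could differ by batch, since their identifiers fall into 3 runs and only the first continues those of the silica rats. The silica rats form a run of their own (81 to 88) that holds no air rat. A difference of that run and the effect of silica therefore cannot be told apart. Between the 3 runs, 0 of the 7 chaperones differed in limma's F test after adjustment (smallest adjusted p = 0.363), against 0.162% of all genes tested. Cryab had an unadjusted p of 0.0285, with mean log2 intensities of 11.10 in rats 89 to 92, 11.01 in rats 105 to 108 and 10.93 in rats 137 to 140. Silica lungs were then set against each run alone, comparisons that share the same 8 silica arrays.

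Hspd1 was higher in silica lungs against each run, with log2 fold changes of 0.16 against rats 89 to 92 (limma adjusted p = 0.0280), 0.19 against rats 105 to 108 (0.00416) and 0.16 against rats 137 to 140 (0.00851). Cryab had log2 fold changes of −0.35 (0.00463), −0.27 (0.0144) and −0.18, the last of which did not pass (limma adjusted p = 0.0639). Dnaja1 passed against rats 105 to 108 (0.18, limma adjusted p = 0.0438) and rats 137 to 140 (0.18, 0.0456) and not against rats 89 to 92 (0.14, 0.232). Hspe1 passed against no run, with 0.07 (limma adjusted p = 0.666), 0.21 (0.0638) and 0.20 (0.104), and Dnajb1 passed against rats 105 to 108 alone (0.16, 0.0340). In all, 2 of 7 chaperones passed against rats 89 to 92, where 6.18% of all genes did, 4 of 7 against rats 105 to 108 (17.4%), and 2 of 7 against rats 137 to 140 (20.7%). Of the pairs with small heat shock proteins, Hspd1 minus Hspb1 passed against every run (adjusted p = 0.00848, 0.00848 and 0.0377, exact permutation), and Hspe1 minus Hspb1 against none (0.233, 0.0707 and 0.120). Dnaja1 minus Hspb1 passed against rats 105 to 108 (0.0159) and not against rats 89 to 92 (0.0545) or 137 to 140 (0.0617), and Dnajb1 minus Hspb1 passed against the last 2 runs (0.0159 and 0.0382) and not the first (0.0613). Against Cryab, the pairs with Hspd1, Hspe1, Dnaja1 and Dnajb1 passed against every run, and that with Hspa4 against the first 2 (0.0424 and 0.0141) and not rats 137 to 140 (0.586). Against rats 137 to 140 Hspa4 also separated from Hspd1, Hspe1, Dnaja1 and Dnajb1 (adjusted p = 0.0318, 0.0354, 0.0377 and 0.0364, exact permutation), so that 2 of the 3 pairs within the cytosolic class passed there.

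**Figure D3:**
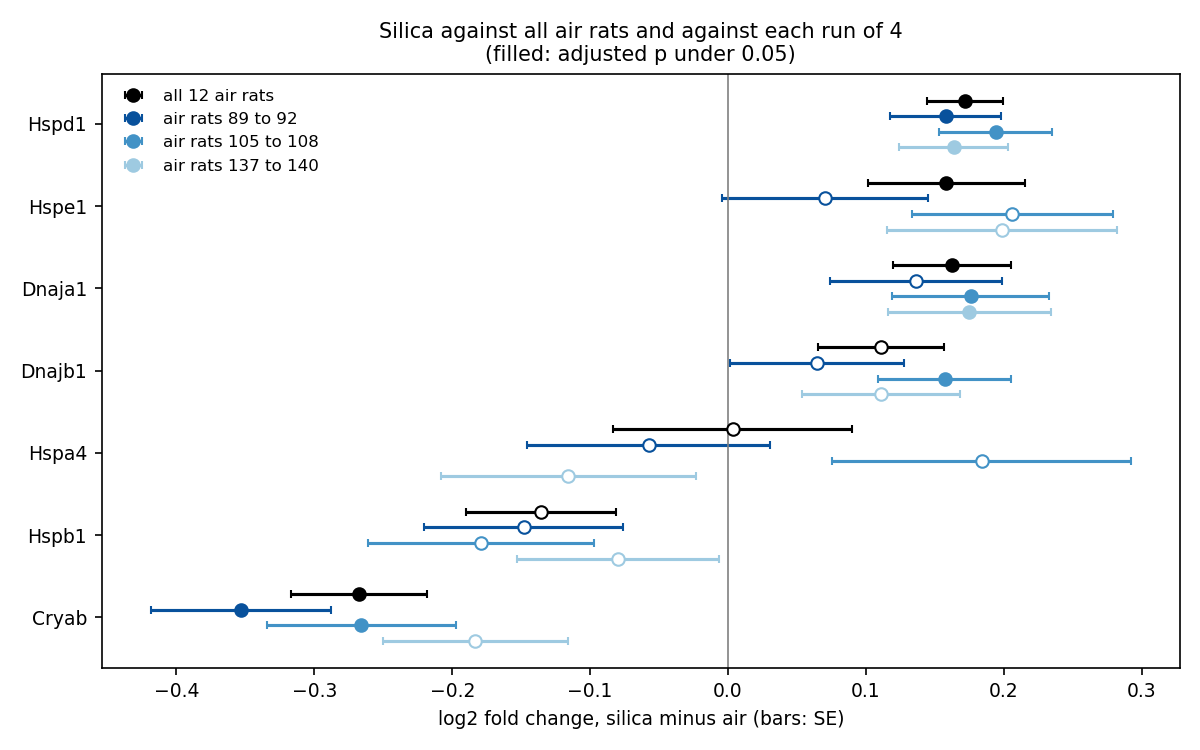
Log2 fold change of the 7 chaperones, silica minus air (horizontal axis, bars SE), against all 12 air rats and against each run of 4, filled where the limma adjusted p is under 0.05. Hspd1 is filled in all 4 comparisons and Cryab in 3 of them, and Hspa4 changes sign between runs.

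Variation between animals of 1 group was then compared between genes. Over 8 relations (4 gene pairs in each group, the pairs of Dnaja1 with Dnajb1 and of Cryab with Hspb2 added after the data had been seen), none passed after adjustment. Dnaja1 and Dnajb1 had a Pearson r of 0.725 among the 8 silica arrays (exact permutation p = 0.0371, adjusted p = 0.297; Spearman rho 0.50, p = 0.216), which was 0.437 without the 2 arrays farthest from the median of Dnaja1. In air lungs the same pair had an r of 0.505 (n = 12; permutation p = 0.0962, adjusted p = 0.329; rho 0.553, p = 0.0652), 0.116 without the 2 farthest arrays and 0.477 after centring each run. Hspd1 and Hspe1, which share the promoter region shown above, had an r of 0.150 among silica arrays (exact permutation p = 0.726; rho 0.143, p = 0.752) and 0.245 among air arrays (permutation p = 0.444; rho 0.399, p = 0.201; 0.131 within runs). Without the 2 arrays farthest from the Hspd1 median these were 0.922 and 0.387. With median scaling they were 0.455 and 0.555 over all arrays, and −0.879 and 0.805 without the 2 farthest, so the value in silica lungs depends on which arrays and which scaling are used.

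Hspb1 and Cryab had an r of −0.333 among silica arrays (exact permutation p = 0.329; rho −0.50, p = 0.216; −0.850 without the 2 farthest arrays) and 0.0288 among air arrays (permutation p = 0.928; rho −0.0210, p = 0.951; 0.299 without the 2 farthest and −0.306 within runs). Without the 2 farthest silica arrays, r was 0.147 with median scaling and −0.933 with the authors' deposited values, so it too depends on the scaling. The genes whose values, centred on each group's mean, followed Hspd1 most closely over the 20 arrays were Pfkfb1 (r = 0.628), Polh (0.600) and Il13ra1 (0.590). For Hspb1 they were Arhgap23 (0.845), Raly (0.828) and Kat14 (0.821). These are the highest of all genes tested and share arrays and normalization with the gene they were matched to, so they are descriptions.

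Beyond these genes, 94 other chaperone and folding genes in 8 lists were tested. Of them 16 rose, 9 fell and 69 did not pass, which is 26.6% called against 24.5% of all genes tested, with a median log2 fold change of 0.03. Among 4 further small heat shock proteins 1 fell, Hspb2, the neighbour of Cryab on chromosome 8. It had log2 intensities of 7.31 at the lowest, 7.52 at the median and 7.65 at the highest in silica lungs, against 7.54, 7.74 and 7.99 in air lungs, and a log2 fold change of −0.25 ± 0.06 (SE; limma adjusted p = 0.00254). Hspb6 had −0.14 (limma adjusted p = 0.0598), Hspb7 −0.19 (0.517) and Hspb8 −0.03 (0.711). The median of the 4 was −0.17, and 2 of the 4 fell without silica replicate 8 or air replicate 4, 5 or 8.

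Cryab and Hspb2 covaried in neither group after adjustment, with an r of 0.448 among silica arrays (exact permutation p = 0.271, adjusted p = 0.527; rho 0.738, p = 0.0458, adjusted p = 0.188; r without the 2 farthest arrays 0.467) and −0.469 among air arrays (permutation p = 0.123; rho −0.545, p = 0.0703; −0.633 without the 2 farthest and −0.266 within runs).

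Of 13 further mitochondrial chaperones and proteases 1 rose, Clpp, the proteolytic core of the matrix protease ClpXP, with a log2 fold change of 0.16 ± 0.04 (SE; limma adjusted p = 0.00598). Its log2 intensity was 9.10 to 9.33 in silica lungs and 8.85 to 9.17 in air lungs. Hspa9, the mitochondrial Hsp70, had 0.11 (limma adjusted p = 0.0510), and the median of the 13 was 0.05. Without silica replicate 8 or air replicate 6 or 8, 2 of the 13 rose. Of the 6 further cytosolic Hsp70, Hsp110 and Hsp90 genes 2 fell. Hspa13, a short Hsp70 relative (STCH in the table) that is known from microsomes rather than the cytosol, had −0.14 ± 0.04 (limma adjusted p = 0.0182). Hspa12b, a distant Hsp70 relative known from endothelium, had −0.18 ± 0.06 (limma adjusted p = 0.0206), and its call was lost without silica replicate 4 (0.0520). Of the 8 endothelial markers 5 fell and none rose, with Tie1 at −0.33 and a summed level of 22034 to 25733 in silica lungs against 24708 to 30266 in air lungs, and their part in the lower Hspa12b was not tested. Hsp90aa1, the inducible cytosolic Hsp90, had 0.04 (limma adjusted p = 0.732).

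Among 17 other J-domain proteins of the cytosol and nucleus 1 rose and 1 fell, with a median of −0.02. Dnajc5, the cysteine string protein of secretory vesicles, rose (0.34 ± 0.07, limma adjusted p = 0.00125), and Dnajc7, which passes clients between Hsp70 and Hsp90, fell (−0.20 ± 0.04, limma adjusted p = 9.69e-04). Without silica replicate 2 or air replicate 1 or 4 the number that rose was 2. Of 21 cochaperones and exchange factors 3 rose and 4 fell, and without silica replicate 3 the number that fell was 2. Cacybp (0.16 ± 0.04) and St13, the Hsp70-interacting protein Hip (0.14 ± 0.04), were among those that rose, and Fkbp8, a membrane-bound immunophilin (−0.21 ± 0.05), and Bag6 (BAT3 in the table; −0.20 ± 0.06), which guards proteins bound for membranes, among those that fell. Their limma adjusted p-values were 0.00505, 0.0164, 0.00269 and 0.0195 in that order.

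The endoplasmic reticulum list held the most rises, 7 of 15 with none lower and a median log2 fold change of 0.12. Hspa13, known from microsomes, fell and was counted in the cytosolic Hsp70 list instead. Canx, the lectin chaperone calnexin, had log2 intensities of 7.89 at the lowest, 8.00 at the median and 8.25 at the highest in silica lungs, against 6.85, 7.56 and 7.87 in air lungs, and the groups did not overlap. Its log2 fold change was 0.54 ± 0.10 (SE; limma adjusted p = 5.47e-04). Sdf2l1 (0.39 ± 0.08), Dnajc3 (0.27 ± 0.04) and Hspa5, the Hsp70 of this compartment known as BiP (0.15 ± 0.04), also rose, with limma adjusted p-values of 8.76e-04, 1.66e-05 and 0.00889. Secretory cells such as alveolar type 2 cells are rich in this compartment. Of the alveolar type 2 markers 4 of 8 rose (Sftpd by a log2 fold change of 0.58), of the neutrophil markers 7 of 9 (Il1r2, 1.31), of the monocyte and macrophage markers 6 of 9 (Cd14, 0.65) and of the dividing cell markers 7 of 9 (Prc1, 0.59), with none lower in these 4 lists. Their summed levels were 69530 to 77590, 5763 to 8674, 21848 to 24636 and 4860 to 5530 in silica lungs, against 62455 to 74431, 2700 to 4027, 11752 to 20554 and 4000 to 4906 in air lungs. Of the ciliated cell markers 1 of 8 fell, Tppp3 (−0.31), with summed levels of 4429 to 6070 in silica lungs and 4990 to 7061 in air lungs. The part of these cells in any chaperone's change was not tested.

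Of the chaperonin TRiC and its partner prefoldin, 3 of 10 genes rose by small amounts: Pfdn1 (0.18 ± 0.06), Cct3 (0.12 ± 0.04) and Cct2 (0.11 ± 0.04), with limma adjusted p-values of 0.0292, 0.0431 and 0.0456. Cct3 and Cct2 each kept the call in 8 of the 20 fits that leave out 1 array. Cct3 lost it without silica replicate 3, 4, 5 or 7 or air replicate 2, 3, 4, 5, 7, 9, 11 or 12 (adjusted p up to 0.0996), and Cct2 without silica replicate 2, 3, 4, 5 or 7 or air replicate 2, 6, 7, 8, 9, 10 or 12 (up to 0.0991). Pfdn1 lost it without silica replicate 2 (0.0675), 4 (0.0624) or 5 (0.0750), and 0 of the 10 passed without silica replicate 4 or 5. Among 8 heat shock factors and their regulators 1 rose and 1 fell. Vcp, an ATPase that extracts proteins for degradation, rose by 0.16 ± 0.04 (limma adjusted p = 0.00366), and Hsf4, a heat shock factor best known from the lens, had −0.35 ± 0.07 (limma adjusted p = 7.79e-04). Hsf4 had log2 intensities of 6.38 to 6.80 in silica lungs and 6.68 to 7.15 in air lungs. Without silica replicate 5 or air replicate 4, 10 or 11, 2 of the 8 fell. Several genes of these lists were detected on too few arrays to test. In the endoplasmic reticulum list these were Hyou1 and Dnajb11, each detected on 0 arrays, although the median intensity of Dnajb11 was 345. Hsph1, Hsp90ab1 and Hspa12a were detected on 0 of 20 arrays, and Bag3 and Fkbp4 on 3. Whether the probes of these untested genes read their transcripts was not tested, so lack of detection does not show that the RNA is absent. Of the 19 genes named from these lists, which were named for passing against all air rats, 5 passed against rats 89 to 92 alone, 10 against rats 105 to 108 and 14 against rats 137 to 140.

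**Figure D4:**
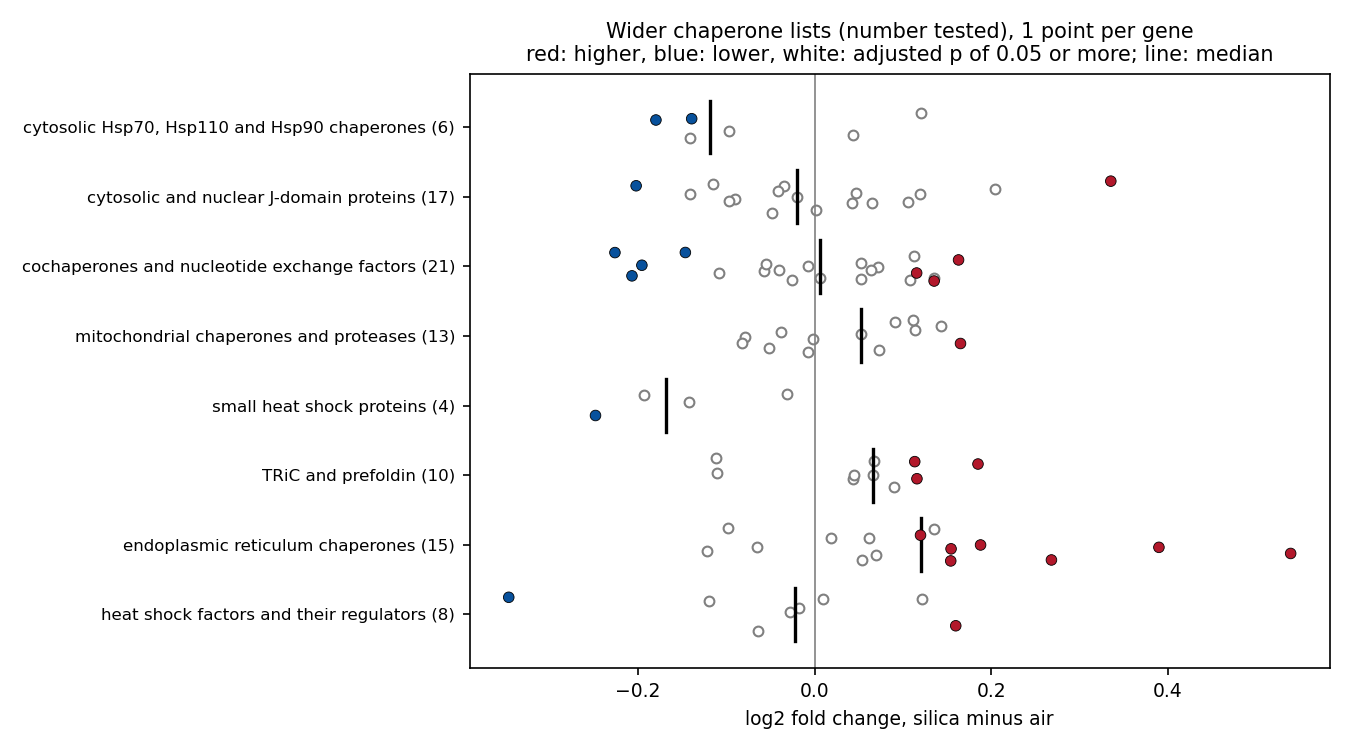
Log2 fold change, silica minus air (horizontal axis), of 94 further chaperone genes in 8 lists, 1 point per gene, red where higher and blue where lower at a limma adjusted p under 0.05, white otherwise, with a line at each list's median. The endoplasmic reticulum list has 7 red and no blue points, with Hspa13 plotted in the cytosolic Hsp70 list. The small heat shock protein list has 1 blue point, with all 4 genes left of 0.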

How the data were processed

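The deposited table gives, for each gene and array, a mean bead intensity (not background-subtracted or normalized by the authors, judging from its values), a detection p-value deposited by the authors, the standard error and the number of beads. BeadStudio, lumi and limma are named in the submitters' processing notes, with roles and versions not given in the sources used here. The authors' deposited log2 values, normalized between arrays in a way not stated, served as an alternative.

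Intensities were corrected with limma 3.58.1 in R 4.3.3 (normexp, offset 16, with the negative control mean and SD inferred from detection p-values over the genes other than 683 that average several probes), taken to log2 and quantile-normalized. The fit took the 10488 genes with a detection p below 0.01 on 8 or more arrays, and 11304 were set aside. Silica and air were compared with lmFit and eBayes (2-sided, trend on intensity). P-values were adjusted by Benjamini and Hochberg over every gene in the fit. On simulated data for this comparison, 10488 genes with 200 changed, 50% of log2 changes of 0.25 and 95% of changes of 0.5 were recovered. In the real fit 24.5% of genes passed, a larger share than was changed in the simulation. The adjustment is stricter where fewer genes change, so the recovered shares may be too low for the real fit. A change of the size seen here can still be missed. The self-test made 9 false calls.

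Pairs of genes were compared by exact permutation over arrays in Python 3.11.15, with intervals from the pooled spread of both groups. Correlations used exact permutation in silica lungs and 100000 permutations in air lungs. Each rat gave 1 array, and nothing in the labels names a chip or scan. Array medians were 67.0 to 98.6, with 9434 to 10840 genes detected and 40 to 43 beads per gene at the median. The number of arrays limits the precision. The table's old gene symbols were updated through a RefSeq table of GRCr8, used for names and neighbours (9918 by current symbol, 4817 by synonym, 1586 by identifier, 5471 kept). Where a list gene has several rows, the brightest stands for it.

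The genes, lists and tests were chosen with earlier results of these data known. Named were all 10 chaperones, up to 4 passing genes of smallest p in each chaperone list, the gene of smallest p in each cell type list, and 3 genes most like Hspd1 and Hspb1. Hspb6, Hspb7, Hspb8, Hspa9, Hsp90aa1, Hspa8-ps31 and the list genes named as untested stand outside that rule and were chosen after their values were seen. Planned pairs and relations with Hspa8, Hspa1a or Hspa1b could not be run, while 4 planned pairs could. The rest of the 21 pairs of the 7 tested genes, and 2 further correlation pairs, were added after the data had been seen.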

Additional observations from a re-analysis of the deposited data

Results flagged for a closer look

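Among the 7 tested chaperones in the 8 silica lungs, 1 array stood apart by its gap to the next. Hspb1 was at a log2 intensity of 12.49 in rat 86, and its gap to the nearest silica array was 0.587 of the group's whole range, above Dixon's 95% critical value for 8 samples. Chance puts about 1 in 20 groups past that value. In the same rat the other 6 genes did not stand apart. Without rat 86 (silica replicate 6) the pairs of Hspb1 kept their calls: Hspd1 minus Hspb1 was 0.26 (adjusted p = 2.08e-04, exact permutation), Hspe1 minus Hspb1 0.23 (0.0265), Dnaja1 minus Hspb1 0.26 (0.00347) and Dnajb1 minus Hspb1 0.21 (0.00988).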

How the results depend on the processing

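The log2 fold change of Hspd1 kept its direction and its call in all 35 alternatives run, Cryab in 34 and Dnaja1 in 33. Hspe1 lost its call in 22 of 35, among them median scaling (adjusted p = 0.0820), the authors' deposited log2 values (0.0552), no filter on dim genes (0.0754), no intensity trend (0.0518) and identifier runs as a random block (0.0781). The calls among all genes were 648 (394 higher and 254 lower) against air rats 89 to 92 alone. Against that run 1 chaperone was higher, and of the wider lists 4 genes were higher and 1 lower. Against rats 137 to 140 alone 0 chaperones were lower in limma (1, Cryab, at an unadjusted p under 0.05), and 10 of the wider genes were higher. Against rats 105 to 108 alone 4 of the wider genes were lower. Leaving out 1 array at a time gave 2 to 4 chaperones higher, 1 to 2 lower, and 13 to 17 higher and 7 to 11 lower in the wider lists. Same-numbered rats of the groups did not deviate together (r from −0.228 to 0.163 over replicates 1 to 8). With the replicate number as a block, 1542 genes passed (713 lower), with 1 chaperone higher (Hspd1) and, in the wider lists, 5 higher and 5 lower, and Hspa4 minus Hspd1 (adjusted p = 0.0273) and Hspa4 minus Hspe1 (0.0410) passed. Median scaling gave 2 called correlations (Dnaja1 with Dnajb1 in both groups).

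Differences near 0 changed sign. Hspa4 was −0.0013 under the default neqc call, −0.00085 with no background correction, −0.00087 with offset 50, −0.058 and −0.12 against rats 89 to 92 and 137 to 140, −0.087 with the replicate block, and −0.045 to 0.031 leaving out 1 array. Against rats 105 to 108 alone Dnaja1 minus Hspa4 was −0.0080, Dnajb1 minus Hspa4 −0.027, Dnaja1 minus Hspe1 −0.030 and Hspd1 minus Hspe1 −0.012. Against rats 137 to 140 alone Dnaja1 minus Hspd1 was 0.011, Dnaja1 minus Hspe1 −0.024, Hspa4 minus Hspb1 −0.036 and Hspd1 minus Hspe1 −0.035. Under the default call Dnaja1 minus Hspe1 was −0.014 and Hspd1 minus Hspe1 −0.0022. Dnaja1 minus Hspd1 was 0.0058 with median scaling and 1.77e-05 with the authors' deposited values. Leaving out 1 array gave −0.025 to 0.0091 for Dnaja1 minus Hspd1, −0.022 to 0.033 for Dnaja1 minus Hspe1 and −0.024 to 0.043 for Hspd1 minus Hspe1. The r of Hspb1 with Cryab was 0.0427 in silica lungs with median scaling, and −0.0770 in air lungs with the authors' deposited values. The causes were not tested.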
